A study of Bos taurus with 6 samples.

Results

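Among 950004 CpGs covered in every library, 15888 (1.67%) stood at an intermediate methylation level in bull sperm while both somatic cell types were at the same extreme. They were chosen by a rule on the methylation percents themselves. A CpG on chromosomes 1 to 29 had to be covered by 10 to 500 reads in all 6 libraries, and the percent of a cell type was the number of methylated reads summed over its 2 libraries divided by their summed coverage. Sperm had to lie from 30% to 70%, here called the window, and monocytes and fibroblasts had to lie both below 20% or both above 80%. The first direction held 1817 CpGs (0.191% of those tested), at which the somatic cells were hypomethylated, and the second held 14071 CpGs (1.48%), at which they were hypermethylated. Together they made up part of the 30419 CpGs (3.20%) with sperm in the window. Since the rule chose the CpGs by their levels in each cell type, these levels are given as a description, and only what the rule did not use was tested.

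The libraries were made by reduced representation bisulfite sequencing (RRBS), in which DNA is cut at CCGG sites with MspI and bisulfite turns unmethylated cytosines into uracil, read as thymine, so that methylation is read at single CpGs. Sperm came from 2 Holstein bulls, 1 straw of commercial frozen semen each. Monocytes were purified with CD14 microbeads from the blood mononuclear cells of 2 Holstein cows, and fibroblasts were grown from ear skin of 2 Holstein heifers up to passage 11. No treatment or genetic change was applied, and each library represented a different animal. Cell type and sex of the donor cannot be told apart, nor can culture and the fibroblast type, and monocyte libraries had 12 PCR cycles against 14 for the others. The coverage summed over CpGs ranged from 45884839 to 78890776 per library. The median coverage of the X chromosome was 0.556 and 0.600 times that of the autosomes in the sperm libraries and 0.867 to 0.923 times in the somatic libraries. Marker genes of the cell types were not looked at, as a gene annotation on the UMD3.1 build was not used here.

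DNA methylation in mammals is carried mostly by CpGs. It is largely erased in primordial germ cells and laid down again in the male germline before meiosis, so that mature sperm have a pattern of their own, with most CpGs either methylated or unmethylated. A single chromosome copy carries a given CpG methylated or not, and an intermediate percent is therefore an average over the DNA molecules sampled from many cells. Intermediate levels are best known in somatic cells from imprinted regions, where the copies of the 2 parents differ. A sperm cell carries a single copy of each chromosome.

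Few CpGs of either somatic class had sperm in the window. Of the 372826 CpGs at which both somatic cell types were below 20%, 94.4% had sperm from 0 to 5%, 1.37% had sperm from 95 to 100%, and 0.487% (95% Wilson interval 0.466 to 0.510) lay in the window. Of the 281380 CpGs at which both were above 80%, 70.7% had sperm from 95 to 100%, 7.90% had sperm from 0 to 5%, and 5.0% (4.92 to 5.08) lay in the window. In both classes the 5-point bin with the fewest CpGs was that from 55 to 60%, with 176 and 1525 CpGs. These intervals, like the others given here, cover counting error only and not the spread between animals.

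**Figure D1:**
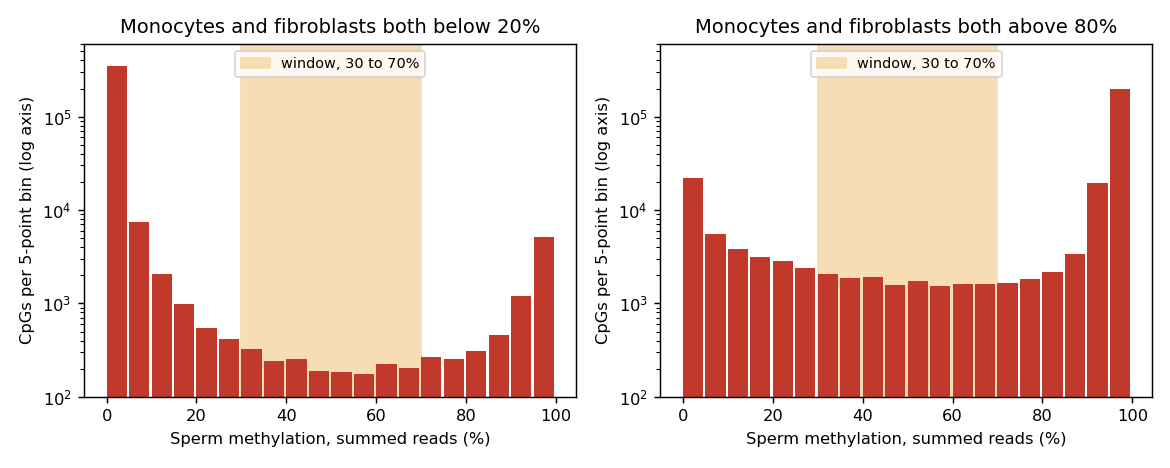
Number of CpGs (y axis, log scale) in each 5-point bin of sperm methylation (x axis, %, summed reads of both libraries), for CpGs with both somatic cell types below 20% (left) or above 80% (right). The shaded window holds 1817 CpGs on the left and 14071 on the right, fewer than the bins at 0 or 100% on either side.

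Within the window, the members did not gather at a single level. With hypomethylated somatic cells, 566 members lay at 30 to 40% in sperm, 446 at 40 to 50%, 362 at 50 to 60% and 443 at 60 to 70%. With hypermethylated somatic cells, the same bins held 3941, 3518, 3284 and 3328 members. Members just inside and just outside the limits were close to each other by construction. The 2 members nearest to the lower limit in the first direction (chr15:34280128 and chr23:27346328) were both at 30%, and the CpGs just below it (chr12:15329306 and chr18:18249602) at 29.9% and 29.8%. In the second direction, 2 members at the upper limit (chr1:150084366 and chr17:14646324) were both at 70%, and the CpGs just above it (chr3:82801766 and chr15:74632379) both at 70.1%.

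Member CpGs with hypomethylated somatic cells had a median methylation of 52.6% in sperm replicate 1 and 43.8% in sperm replicate 2. The median was 0% in each of the 4 somatic libraries, with upper quartiles of 6.25% for both monocyte libraries and of 7.14% and 6.82% for fibroblasts. The sperm libraries both lay above all 4 somatic libraries at 1621 members (89.2%), and at 417 (22.95%) every somatic library was at exactly 0%. The rule itself keeps summed sperm and somatic levels apart, so that this separation follows largely from the choice. It was not counted over all tested CpGs.

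At the members with hypermethylated somatic cells, the sperm libraries had medians of 50.0% and 45.7%, the monocyte libraries of 96.1% and 95.8%, and the fibroblast libraries both of 93.75%. Both sperm libraries lay below all somatic libraries at 13030 members (92.6%), and all 4 somatic libraries stood at exactly 100% at 856 (6.08%). Here too the separation follows largely from the rule and was not counted over all tested CpGs. Summed over reads, monocytes were above fibroblasts at 9120 of these members and below them at 4038. For the first direction, monocytes were above fibroblasts at 625 members and below them at 773.

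The depth made the level of a single member coarse. The summed sperm coverage had a median of 40 reads with hypomethylated and 48 reads with hypermethylated somatic cells, and the median width of the 95% Wilson interval of the sperm percent was 28.8 and 26.5 points. That interval stayed clear of the somatic limit of 20% or 80% at 1645 (90.5%) and 13322 members (94.7%). As the rule used these contrasts, the calls of differentially methylated CpGs (DMCs) between cell types are only a description. With a likelihood-ratio test on summed counts, an adjusted p below 0.01 and a difference of at least 25 points, 1613 (88.8%) and 13188 (93.7%) members were DMCs between monocytes and sperm, where 18.9% of all tested CpGs were called. Between fibroblasts and sperm they were 1646 (90.6%) and 12533 (89.1%), where 27.6% of all tested CpGs were called.

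The rule summed the reads of both bulls, so that an intermediate sum could come from 2 intermediate bulls or from 2 bulls at different levels. Both were found. With hypomethylated somatic cells, both sperm libraries lay in the window at 888 members (48.9%), 1 of them at 803, and neither at 126. With hypermethylated somatic cells, the numbers were 8383 (59.6%), 5192 and 496. At 65 members (3.58%) of the first direction and 225 (1.60%) of the second, 1 bull was below 20% and the other above 80%. Over all tested CpGs the share was 0.112%. Among the 14531 CpGs with sperm in the window that were not members it was 5.05%, larger than in either direction. A complete contrast, 0% in 1 bull and 100% in the other, was read at 25 and 87 members. The same contrast was read at 344 of these 14531 other CpGs. A thymine in place of the cytosine in the DNA of a bull would be read as unmethylated too, and this was not tested, as no genotypes were used here.

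**Figure D2:**
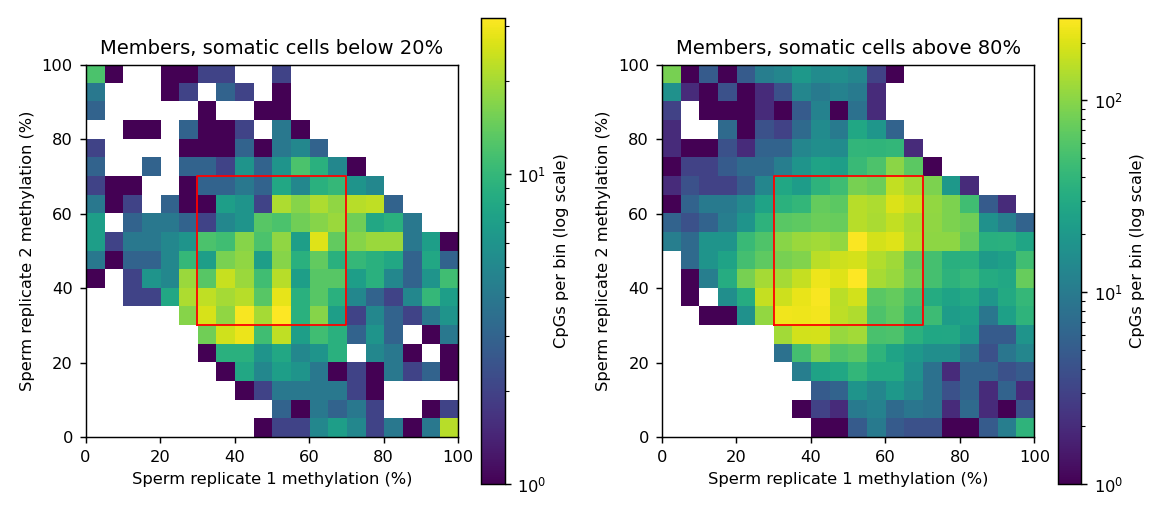
Methylation (%) of the members in sperm replicate 1 (x axis) and sperm replicate 2 (y axis), counted in bins of 5 by 5 points (colour, log scale), for somatic cells below 20% (left) and above 80% (right). The red square marks both libraries in the window, with 888 members on the left and 8383 on the right, and the corners at upper left and lower right hold CpGs at opposite extremes in the 2 bulls.

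When the rule was applied to the 3 libraries numbered 1 alone, 1838 CpGs of the first direction were chosen. In the sperm library that had not been used, 905 of them (49.2%, 95% interval 47.0 to 51.5) were in the window, 39.2% were below 30% and 11.6% above 70%, with a median of 36.0%. Choosing on the libraries numbered 2 gave 2019 CpGs, of which 901 (44.6%, 42.5 to 46.8) were in the window in the other sperm library, 23.4% were below 30% and 31.9% above 70%, with a median of 53.3%. CpGs of the same somatic class whose sperm value was outside the window in the library used fell into it in the other at 0.301% and 0.261%.

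The second direction held more often in the other bull. Of 13545 CpGs chosen on the libraries numbered 1, 8234 (60.8%, 60 to 61.6) were in the window in the second sperm library, 24.5% were below 30% and 14.7% above 70%, with a median of 44.0%. In the reverse choice, 8350 of 14298 CpGs (58.4%, 57.6 to 59.2) were in the window, with a median of 53.1%. The share was 2.27% and 2.05% among CpGs of the same somatic class outside the window in the library used. The whole rule, somatic limits included, held in the other 3 libraries at 726 CpGs of the first direction, 39.5% and 36.0% of the 2 choices, and at 6901 of the second, 50.9% and 48.3%.

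Each CpG was then tested between the 2 bulls with Fisher's exact test, adjusted over all 950004 CpGs by Benjamini-Hochberg, with an adjusted p below 0.01 and a difference of at least 25 points. This compares 2 libraries of 1 animal each. Over all tested CpGs, 0.266% were called. Of the members with hypomethylated somatic cells, 110 (6.05%) were called, 73 of them higher in replicate 1 and 37 in replicate 2. Of the members with hypermethylated somatic cells, 414 (2.94%) were called, 248 higher in replicate 1 and 166 in replicate 2. Without adjustment, 449 of 1817 and 2563 of 14071 members had a p below 0.05 in this test. Over all 950004 tested CpGs it was 17048. Of the 14531 CpGs with sperm in the window that were not members it was 3783.

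CpGs at an extreme leave little room for a difference, so that other intermediate CpGs are the closer comparison. Among the 14531 CpGs with sperm in the window that were not members, 1188 (8.18%) were called between the bulls, a larger share than among the members of either direction. Among the 1215 of them at 30 to 70% in all 3 cell types, 177 (14.6%) were called. In the 4 neighbouring classes, with the same somatic extremes and sperm below 30% or above 70%, the share was 0.0102% to 0.250%. Regardless of sign, the bulls differed by a median of 16.7 points at members in the first direction and 13.0 points in the second. The median was 15.7 points at the 14531 other CpGs and 20.8 points at those intermediate in all 3 cell types. A difference of at least 25 points was read at 35.5% of the first direction, 24.6% of the second and 33.8% of the 14531 other CpGs. By these measures the first direction lay slightly above the other CpGs, although a smaller share of it was called. The sets were not matched for depth. Mean coverage in the sperm libraries was 19.6 and 22.7 reads in the first direction and 39.7 and 47.6 in the second. At the 14531 other CpGs it was 31.9 and 38.3. How far depth enters the shares called was not tested.

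Differences between the libraries of a somatic cell type were bounded by the somatic limits of the rule. In the first direction 2 members (0.110%) were called between the monocyte libraries and 6 (0.330%) between the fibroblast libraries. In the second direction 3 (0.0213%) and 11 (0.0782%) were called. Of all tested CpGs, 0.128% were called between the monocyte libraries and 0.518% between the fibroblast libraries. At CpGs of the same somatic classes with sperm below 30%, the shares were 0.00110% and 0.0184% with hypomethylated somatic cells and 0.010% and 0.0475% with hypermethylated ones, lower than at the members of both directions. With sperm above 70% they were 0.0132% and 0.171%, and 0.00264% and 0.0572%. At CpGs intermediate in all 3 cell types, 8.72% and 11.1% were called in these comparisons.

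Replicate 1 was the higher bull at most members that were not equal in both. It was higher at 1146 members of the first direction and lower at 653, with 18 equal, and higher at 8533 of the second and lower at 5392, with 146 equal. Over all tested CpGs it was higher at 222564 and lower at 195523. At the CpGs with sperm in the window that were not members, it was higher at 8749 and lower at 5640, with 142 equal. The lean was thus not particular to the members.

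From the called members with this complete contrast, the largest difference there can be, the 3 with the highest summed sperm coverage are given for each direction. In the first direction, chr16:3103650 was at 0% of 27 reads in replicate 1 and 100% of 39 reads in replicate 2, with 0% in monocytes and 7.14% and 0% in fibroblasts. At chr5:49860542 the order was reversed, 100% of 32 reads and 0% of 33 reads, with 0% in both monocyte libraries and 25.8% and 0% in fibroblasts. The remaining CpG, chr29:46712117, was at 100% of 28 reads and 0% of 36 reads in sperm, and monocytes were at 0% in both libraries and fibroblasts at 0% and 42.4%. The last 2 had a fibroblast library above 20%, although their summed reads were below it.

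In the second direction, chr5:120892981 was at 100% of 43 reads in replicate 1 and 0% of 25 reads in replicate 2, at 80.0% and 94.1% in monocytes and at 100% in both fibroblast libraries. The other two both lay on chromosome 29 and were at 0% in replicate 1 and 100% in replicate 2. At chr29:50973234 these values rested on 32 and 36 reads, and at chr29:51140865 on 30 and 37 reads. Somatic libraries were from 89.5% to 100% at both.

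Coverage separated a subset of the second direction from the rest. Of the CpGs with hypermethylated somatic cells and a mean coverage over the 6 libraries below 50 reads, 4.27% (95% interval 4.20 to 4.35) had sperm in the window. At a mean coverage of 50 reads or more, it was 2246 of 4681 CpGs, or 48.0% (46.6 to 49.4). In that deep class sperm was below 30% at 47.2% and above 70% at 4.85%, against 13.7% and 82.1% in the class below 50 reads. The deep members made up 16.0% of the direction and lay on all 29 autosomes. Sperm covered them with a median of 111 and 137.5 reads, monocytes with 114.5 and 96, and fibroblasts with 128 and 164.

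The deep members were closer to each other in the 2 bulls. Their median methylation was 47.7% and 43.8% in sperm, while monocytes were at 93.5% and 92.9% and fibroblasts at 87.4% and 86.8%. Both bulls lay in the window at 1927 of them (85.8%), against 6456 of 11825 (54.6%) of the members below 50 reads, and the median difference between the bulls was 5.69 against 15.3 points. Between the bulls, 16 of the deep members (0.712%) were called, against 398 of the others (3.37%). Over all tested CpGs it was 0.267% in the deep class and 0.266% below 50 reads. Counting error is smaller at greater depth, and its part in these differences was not tested. Only 9 members of the first direction had a mean coverage of 50 reads or more, 1.04% (0.548 to 1.96) of that class, against 0.486% (0.464 to 0.509) below it.

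**Figure D3:**
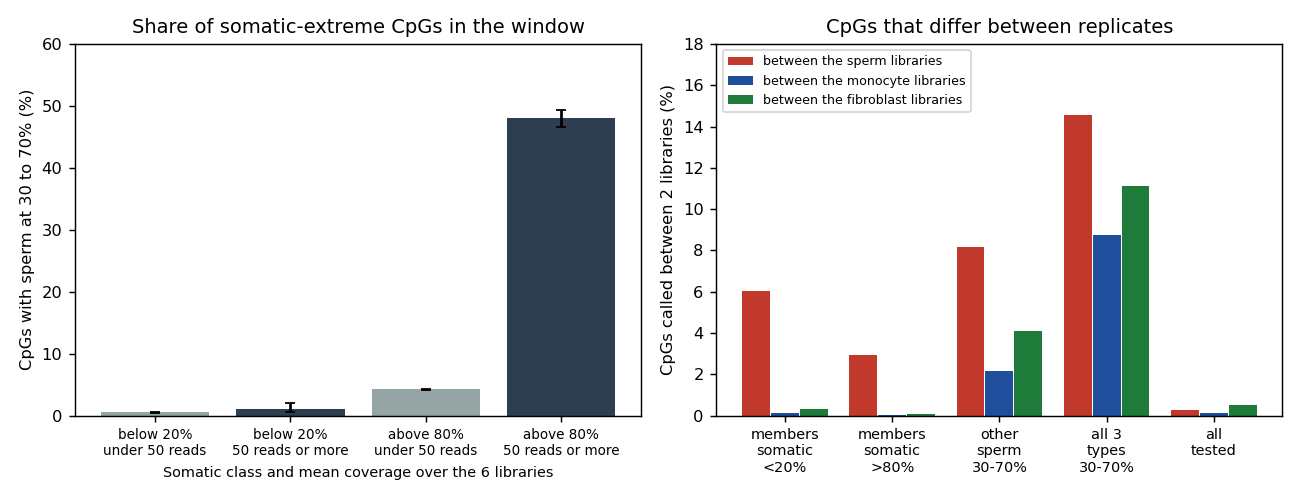
Left, percent of CpGs with sperm in the window (y axis) by somatic class and mean coverage, with 95% Wilson intervals (counting error). Right, percent of CpGs called between the 2 libraries of a cell type (y axis) for the members of both directions, other CpGs with sperm in the window, the CpGs intermediate in all 3 cell types and all tested CpGs. The deep CpGs with somatic cells above 80% stand at 48.0%, and the sperm bars of the members (6.05% and 2.94%) are below that of the other CpGs with sperm in the window (8.18%).

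Over the libraries, the median coverage of members was compared with that of all tested CpGs. In the first direction this ratio was 0.900 and 0.913 for sperm, whereas monocytes had 0.955 and 1.00 and fibroblasts 1.00 and 1.03, so that both sperm libraries were below the somatic ones, with a difference of means of -0.0904. In the second direction it was 1.10 and 1.13 for sperm, whereas monocytes had 1.05 and 1.00, and it was 1.00 in both fibroblast libraries, a difference of 0.104. The exact two-sided permutation test gave p = 0.0667 for each, which is the smallest value that 2 against 4 libraries allow. With a coverage maximum of 100 reads, the difference in the second direction was 0.0698 with an exact permutation p of 0.2.

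Members of the second direction were unevenly spread over the chromosomes. Their share of the tested CpGs ranged from 0.912% on chromosome 19 to 4.03% on chromosome 27, and as a share of the CpGs with hypermethylated somatic cells it was 12.5% on chromosome 8 and 12.0% on chromosome 27. Among CpGs with a mean coverage below 50 reads, these shares were 7.81% and 7.17%. Chromosomes 8 and 27 held 15.0% and 13.0% of the deep members, and 3.68% and 2.88% of the others.

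Single stretches of 1 Mb held part of the members on chromosomes 8 and 27, which had 773 and 633 members of the second direction in all. On chromosome 27, from 28000001 to 29000000, 299 members of the second direction were found, 137 of them deep, which was 55.7% of the CpGs there with hypermethylated somatic cells. On chromosome 8, from 74000001 to 75000000, there were 218, 68 of them deep, and from 56000001 to 57000000 there were 106, 60 of them deep. At least 1 such member was found in 1431 of 2518 stretches of 1 Mb. In the first direction the share of tested CpGs ranged from 0.0805% on chromosome 8 to 0.340% on chromosome 22, and members were found in 509 of these stretches.

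The density of tested CpGs around the members was close to that over all tested CpGs. The median number of other tested CpGs within 100 bp was 5 and 6 for the members of the 2 directions and 6 over all CpGs, whereas it was 10 at CpGs hypomethylated in somatic cells with sperm below 30%. The last 5 Mb of a chromosome held 29.0% and 27.7% of the members against 25.5% of all tested CpGs, and the first 5 Mb held 7.87% and 7.48% against 7.06%. Of the CpGs with hypermethylated somatic cells, the last 5 Mb held 31.7% of those with sperm below 30% and 38.3% of those above 70%. With hypomethylated somatic cells these shares were 11.6% and 34.4%.

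Neighbouring CpGs that were not members were averaged by their distance from a member, which describes the surroundings and not the reach of the pattern. Within 25 bp of a member with hypomethylated somatic cells, these neighbours averaged 50.4% and 46.6% in sperm, while monocytes averaged 18.7% and 17.8% and fibroblasts 17.3% and 17.5%. In the farthest bin, beyond 500 and up to 1000 bp, they averaged 43.1% and 42.1% in sperm, while monocytes averaged 36.5% and 35.8% and fibroblasts 31.5% and 32.6%. The gap between sperm and somatic cells was thus narrower at the larger distance. Of the close neighbours, 48.7% were below 30% in sperm and 40.3% above 70%. Members were left out of the neighbours, and 64.7% of the close ones were of the same somatic class, where a CpG in the window is a member by the rule, so that the share in the window is not given.

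Around members with hypermethylated somatic cells, neighbours within 25 bp averaged 38.4% and 35.3% in sperm, with monocytes at 90.3% and 89.9% and fibroblasts at 79.4% and 79.7%. In the farthest bin the averages were 36.5% and 35.2%, 75.0% and 74.6%, and 65.6% and 65.9%. Sperm stayed at the same level over this range while both somatic cell types were lower farther out. Sperm was below 30% at 62.8% of the close neighbours and above 70% at 22.2%.

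**Figure D4:**
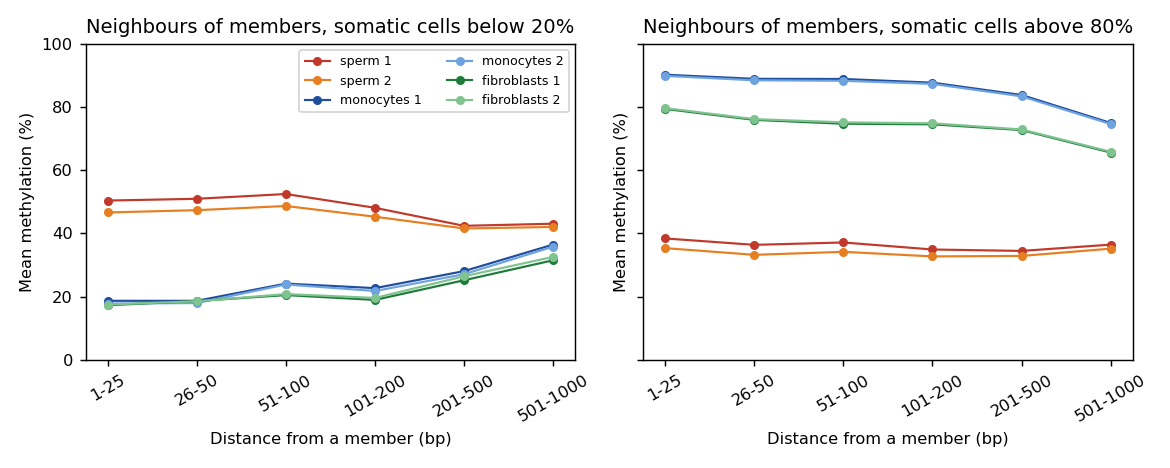
Mean methylation (y axis, %) of tested CpGs that were not members, by distance from a member (x axis, bp), for each library and both directions. In the left panel the sperm lines run from 50.4% and 46.6% to 43.1% and 42.1% while the somatic lines rise, and in the right panel the sperm lines stay between 32.7% and 38.4%, below the somatic ones.

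The members sat between neighbours of different kinds. With hypomethylated somatic cells, 885 members had a tested CpG that was not a member within 500 bp on both sides. At 304 of them (34.4%) sperm was below 30% at both neighbours, at 294 (33.2%) above 70% at both, at 84 (9.49%) below 30% at 1 and above 70% at the other, and at 203 (22.9%) at least 1 neighbour was in the window. With hypermethylated somatic cells, 8816 members could be placed in this way. Both neighbours were below 30% at 4159 (47.2%), both above 70% at 1271 (14.4%), and on opposite sides of the window at 674 (7.65%). At 2712 (30.8%) at least 1 neighbour was in the window. Since members were not counted as neighbours, the shares in the window are lowered by the selection itself.

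CpGs covered by fewer reads than the rule asks for were used as a further look at the same places. Among CpGs with 5 to 9 reads in at least 1 library, 553 lay within 50 bp of a member of the first direction and 231 of them (41.8%) had sperm in the window. For the second direction it was 1592 of 3917 (40.6%). Over all 592056 such CpGs it was 3.27%. Close CpGs often lie on the same reads, so that they are not independent of the members.

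The members were grouped into runs, a run being members of 1 direction with at most 1000 bp between neighbours. Tested CpGs lay close together in any case, with a median of 9 bp to the nearest one over all of them. Runs were not counted for other sets of CpGs. The first direction had 893 runs, of which 551 were a single CpG and 77 held 5 or more members, 578 in all (31.8%), with a median span of 139 bp. The second had 5456 runs, of which 2760 were a single CpG and 693 held 5 or more, 6056 in all (43.0%), with a median span of 303 bp. Within the span of these longer runs, 69.7% and 52.6% of the tested CpGs were members. The directions seldom met, as 78 members of the first (4.29%) had a member of the second within 1000 bp.

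The bulls were also compared on the reads summed over the members of a run. Members that lie on the same reads count the same molecules again, so that the sum does not add depth in proportion. In the 77 runs of the first direction the median difference between the bulls was 17.3 points, regardless of sign, against 1.42 points between the monocyte libraries and 1.44 between the fibroblast libraries. In the 693 runs of the second it was 9.21, 1.40 and 1.94 points. The bulls differed by at least 25 points in 25 runs (32.5%) and 116 runs (16.7%), the monocyte libraries in 1 and 0 and the fibroblast libraries in 0 and 0. Somatic differences are bounded by the somatic limits of the rule, and those of sperm by the wider window, so that these values are not on an equal footing.

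Within runs, neighbouring members leaned the same way. The same bull was higher at every member in 40 of the 77 runs, replicate 1 in 29 and replicate 2 in 11, and in 216 of the 693 runs, replicate 1 in 148 and replicate 2 in 68. For adjacent members at most 50 bp apart, the sign of the difference was shared in 79.4% and 75.3% of pairs, whereas it was shared between a run and the next one in 57.2% and 53.4%. Close members often lie on the same reads, so that their signs are not independent. How much of the shared sign comes from shared reads was not tested.

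The run with the most members in the first direction lay at chr25:1194077-1195036 (UMD3.1), where 20 of 25 tested CpGs were members. Summed over the members, sperm was at 58.8% and 56.7%, a mean of 57.7% ± 1.48 (SD, n = 2), monocytes at 0% and 0.287%, and fibroblasts at 0.765% and 1.98%. Summed over the run, the bulls were alike and both far above the somatic libraries. Single members differed more, with replicate 1 higher at 11 and replicate 2 at 9. Replicate 1 was higher at every member from 1194706 to 1194795, and replicate 2 at every member from 1194889 to 1194978. The 5 other CpGs in the span were all above 70% in sperm. On the right, 17 tested CpGs within 1000 bp averaged 84.8% in sperm against 0.762% for monocytes and 3.42% for fibroblasts, and on the left 8 CpGs averaged 95.2%, 74.4% and 78.6%.

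In the next run, chr18:51651818-51652003, all 17 tested CpGs were members. Sperm stood at 45.5% and 48.5%, monocytes at 4.80% and 3.45%, and fibroblasts at 3.64% and 4.88%. The members spread from 42.5% to 52.5% in summed sperm reads, a narrow range around the middle of the window. Within 1000 bp to the right, 7 CpGs averaged 91.7% in sperm against 51% for monocytes and 28.4% for fibroblasts.

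Some of the longest runs of this direction differed between the bulls. At chr22:49137085-49137902, with 17 members, sperm was at 57.7% in replicate 1 and 28.1% in replicate 2, against 3.12% and 2.16% in monocytes and 3.31% and 3.69% in fibroblasts. Replicate 1 was higher at all 17 members, although 1 passed the test by itself. At chr14:2054728-2055144, with 14 members, sperm was at 51.9% and 29.0% and somatic libraries between 0.200% and 2.30%, and replicate 1 was again higher at every member. At chr1:146036372-146036769, with 14 members, sperm was at 71.1% and 56.3% and somatic libraries between 4.35% and 8.46%.

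The remaining named runs of this direction held 12 or 13 members. The run at chr26:22374966-22375341 was at 43.5% and 36.3% in sperm and from 0.345% to 8.86% in somatic libraries. At chr22:58616131-58616204 all 12 tested CpGs were members, with sperm at 49.7% and 36.7% and somatic libraries from 0.529% to 4.19%. Its left side was methylated in every cell type, 5 CpGs averaging 98.6% (sperm), 93.3% (monocytes) and 92.6% (fibroblasts). The run at chr20:9094006-9094184 was at 42.9% and 52.1% in sperm and from 7.60% to 14.3% in somatic libraries.

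In the second direction the run with the most members was chr2:126352189-126353784, with 45 members of 70 tested CpGs. Sperm was at 67.4% and 42.4%, monocytes at 97.3% and 98.1%, and fibroblasts at 95.2% and 91.7%. Replicate 1 was higher at 41 members and lower at 3. On both sides sperm was highly methylated too, with 18 CpGs on the left averaging 90.9% and 13 on the right averaging 83.3%, and the somatic cell types stood from 86.7% to 97.3%.

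At chr18:38327310-38327918, 35 of 36 tested CpGs were members. Sperm was at 57.1% and 29.5%, monocytes at 96.6% and 98.4%, and fibroblasts at 96.5% and 97.5%. Replicate 1 was higher at 34 members and lower at 1. The median coverage of a member was 15 and 18 reads in the sperm libraries.

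**Figure D5:**
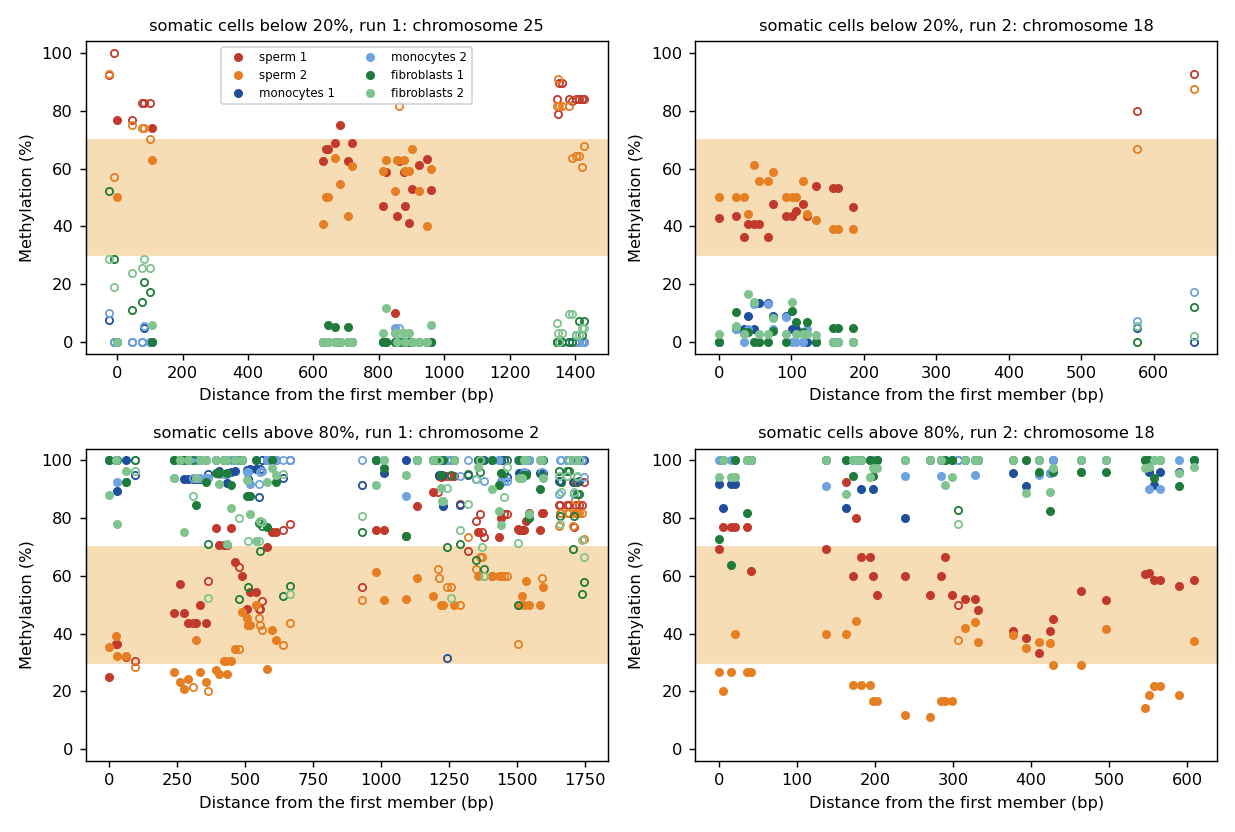
Methylation (y axis, %) of each tested CpG in 4 runs and within 500 bp of them, by distance from the first member (x axis, bp), for the 2 longest runs by members of each direction. Filled points are members, open points other CpGs, colours the 6 libraries, and the band is the window on summed sperm reads. The bulls overlap in both upper panels and replicate 1 lies above replicate 2 at most members in both lower panels.

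The 2 bulls were nearly the same in other long runs of this direction. At chr29:8789275-8789853, all 30 tested CpGs were members, with sperm at 55.9% and 56.2%, monocytes at 96.7% and 96.5%, and fibroblasts at 97.6% and 97.8%. At chr1:143740865-143742233, with 31 members of 68 tested CpGs, sperm was at 45.3% and 43.4% and somatic libraries from 96.6% to 97.7%. Of the 37 other CpGs in that span, 33 were below 30% in sperm, and 11 CpGs on its left averaged 16.0%, so that this run lay in a stretch hypomethylated in sperm.

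The runs at chr22:60923393-60925164 and chr24:50415179-50418772 held 33 members each. Sperm was at 52.7% and 50.0% in the first and at 56.0% and 47.4% in the second, and somatic libraries were from 95.3% to 98.2% over both. CpGs below 30% and above 70% in sperm were interspersed with the members, 23 and 11 in the first span and 24 and 6 in the second. At chr13:81861732-81862932, with 30 members, sperm was at 44.3% and 47.5%.

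The largest difference among these named runs was found at chr18:46821124-46821744, with 29 members. Sperm was at 80.8% in replicate 1 and 36.0% in replicate 2, monocytes at 97.6% and 98.0%, and fibroblasts at 94.8% and 96.4%. Replicate 1 was higher at all 29 members. Its median coverage was 10 reads per member in replicate 1, at the minimum of the rule, and 19 in replicate 2.

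Among all runs of 5 or more members, those with the largest difference between the bulls were picked after their values were seen. In the first direction, chr6:106877562-106877627, with 5 members, was at 98.8% in replicate 1 and 0.840% in replicate 2, and somatic libraries were from 0.714% to 5.26%. The next, chr10:72954985-72955039, with 7 members, was at 75.9% and 1.05%, with somatic libraries from 2.33% to 11.8%. In the second direction, chr15:81672433-81672877, with 20 members, was at 93.2% and 22.9%, with somatic libraries from 90.1% to 94.9%, and 19 of its members were called between the bulls. In these 3 runs replicate 1 lay above the window and replicate 2 below it. In the next ones of the second direction 1 bull lay inside it, with 69.4% and 8.54% at chr21:8448086-8448435 and 98.8% and 38.2% at chr5:119108137-119108231.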

How the data were processed

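The data were 6 RRBS libraries, 2 each of sperm, monocytes and fibroblasts, a grouping taken from their labels. The authors selected MspI fragments of 40 to 290 bp and sequenced 75 bp paired-end reads. The submitters' processing notes name FastQC, Trim Galore 0.3.7, Bismark 0.14.3, Bowtie, methylKit and the UMD3.1 genome. The deposited tables give, for each CpG and library, the coverage as a count of reads, without normalization. The authors gave methylation as a percent of that coverage. A converted cytosine and a thymine in the genome are read alike by bisulfite sequencing, and genotypes were not used here.

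Methylated reads were recovered as the coverage times the percent, rounded. CpGs of chromosomes 1 to 29 with 10 to 500 reads in all 6 libraries were kept. Differences between libraries of 1 cell type were tested with Fisher's exact test, and those between cell types with the likelihood-ratio test of a logistic model on summed counts, both adjusted by Benjamini-Hochberg over all CpGs tested and called at an adjusted p below 0.01 and a difference of at least 25 points. Both tests were run on simulated reads of the 2 sperm libraries with known differences, without variation between animals. The contrast of summed counts between cell types was not simulated. With 2 animals per cell type the p-values say little about the variation between animals. The alternatives were other limits of coverage, of the window and of the somatic classes, other tests, thresholds and gaps, a replicate block, and leaving out each library. Named were the 8 runs with the most members per direction, the 3 members called between the bulls with the largest difference (ties by higher summed sperm coverage), and the 2 CpGs on each side of the sperm limits, of which those of 1 limit per direction are printed. The rule, the lists and the tests were chosen with earlier results of these data known. The gene lists and cell type markers could not be placed, because no annotation of UMD3.1 was used, so that regions carry no gene names and no sequences. The software was pandas 2.3.3, scipy 1.17.1, numba 0.67.0 and numpy 2.4.6 under Python 3.11.15, and plots were drawn with matplotlib 3.10.9.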

Additional observations from a re-analysis of the deposited data

Results flagged for a closer look

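The same rule was applied to CpGs outside the 29 autosomes, which entered none of the comparisons. On the X chromosome 7 of 12539 CpGs (0.0558%, 95% Wilson interval 0.0270 to 0.115) were intermediate in sperm with hypomethylated somatic cells, against 0.191% on the autosomes, and 227 (1.81%, 1.59 to 2.06) with hypermethylated somatic cells, against 1.48%. The X chromosome is present once in the bulls and as a pair in the cows. On sequences outside the X chromosome and the autosomes, 12 of 6238 CpGs (0.192%, 0.110 to 0.336) and 287 (4.60%, 4.11 to 5.15) had the pattern. These were picked out as a signal in positions that were not otherwise used.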

How the results depend on the processing

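The number of members depended on the limits of the rule. It was 2979 and 21924 (somatic cells below 20% and above 80%) at a coverage minimum of 5, 302 and 3784 at 20, 831 and 6933 with a window of 40 to 60%, and 888 and 8383 with each sperm library in the window, and with somatic limits of 10 and 90% it was 8209 in the second direction. At a coverage minimum of 20, 30 (9.93%) and 97 (2.56%) members were called between the bulls, where 0.352% of all CpGs tested were, 283 and 3690 between monocytes and sperm, and 276 and 3421 between fibroblasts and sperm. For the contrasts between cell types, here and with the replicate block, no share over all tested CpGs was counted. The same holds for the alternative counts between somatic libraries that follow. Between the monocyte libraries, the first direction had 7 calls with the likelihood-ratio test, 4 at an adjusted p below 0.05 and 0 with Fisher's exact test at a minimum of 20, where 11 of 302 members had an unadjusted p below 0.05 and the likelihood-ratio test also called 0. The second had 8, 9 and, at 40 points, 1. Between the fibroblast libraries, the first direction had 16, 17 and, at a minimum of 20, 2, and the second had 30, 37, at 40 points 7, at a minimum of 5 7 and at a minimum of 20 6. With a window of 20 to 80% in the library not used for the choice, 67.8% and 64.0% of the first direction and 79.8% and 75.7% of the second lay in it. With the window of 30 to 70% and a minimum of 20 reads, 73.8% and 75.6% of the second did, against 60.8% and 58.4% at a minimum of 10. A replicate block gave 1572 and 12771 members called between monocytes and sperm and 1632 and 12379 between fibroblasts and sperm. The labels give no pairing of animals, and the differences between same-numbered libraries correlated across all tested CpGs from -0.00703 to 0.00609. The other 87 values kept their sign and stayed within 1.5 times or within their counting interval, among them those without each library (1850 to 2169 and 14263 to 15353 members). An alternative chosen after seeing the data, without CpGs of a mean coverage of 50 or more, left 1808 and 11825 members, of which 109 and 398 were called between the bulls. Summing both strands was not run, since no position followed another by 1 bp. Depth limits the bull comparison, with a median of 18 to 26 reads per member and sperm library, as does the single animal per library.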
